A study of Mus musculus with 14 samples.

Results

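The genes described here encode histone lysine methyltransferases and demethylases, the enzymes that add methyl groups to lysines of histone tails and remove them, together with a few relatives that share their SET or JmjC domain. They were taken as the rows of the gene count table whose symbol begins with Kdm, Kmt or Setd, leaving out Kdm1a, Kdm2b and Kdm5d, which gave 33 of 25131 genes. The samples were mouse embryonic stem cells (ESCs) of C57BL/6 background, all grown on gelatin in serum medium with leukemia inhibitory factor and 2i, the inhibitors PD0325901 and CHIR99021. RNA-seq libraries came from cells of genotype RCOR2 KO (KO, 2 libraries) and WT (WT, 2 libraries). The binding profile came from ESCs expressing RCOR2-HA, a tagged form of the corepressor RCOR2, by chromatin immunoprecipitation with anti-HA agarose (2 samples). Of its 2 negative controls one used WT cells and the other cells that express mCherry. How many knockout clones there were, what was deleted and whether the libraries of a group were grown apart is not in the labels. The p-values therefore rest on the spread of these 4 libraries, and that spread may be technical.

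Methylation of histone H3 at lysine 4 (H3K4) marks active promoters and enhancers, methylation at H3K9 and H4K20 marks silent chromatin, methylation at H3K27 marks genes held off by Polycomb, and methylation at H3K36 follows transcribing polymerase. Each mark is written by SET-domain methyltransferases and erased either by the flavin-dependent LSD1 family or by JmjC-domain dioxygenases, so that the level at a site is a balance of both. RCOR2 belongs to the CoREST family, which joins the H3K4 demethylase LSD1 to histone deacetylases. In ESCs the H3K9 enzyme SETDB1 silences retroviral elements, KDM3A and KDM4C are among the H3K9 demethylases linked to self-renewal, and MLL-type methyltransferases mark bivalent promoters.

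Total counts were 2951498 and 1974865 for KO and 2368804 and 1286393 for WT. Rcor2 itself was counted 157 and 103 times in KO and 193 and 107 times in WT, or 54.0 ± 0.212 against 81.4 ± 0.117 counts per 1000000 (CPM; SD, n = 2), and did not pass the threshold (log2 fold change −0.59, SE 0.23; edgeR, adjusted p = 0.0636), so the genotype could not be checked from its transcript. All 10 ESC markers were counted at least 49 times in every library, with a summed level between 3561 and 3910 CPM. Markers of fibroblasts summed to between 11.0 and 26.7 CPM, those of primitive endoderm to between 27.2 and 46.3 in KO and 8.43 and 19.0 in WT, those of neural cells to between 19.3 and 62.8, and those of mesoderm to at most 5.76, with T, Mesp1, Foxa2 and Dcx at 0 in all libraries. The primitive endoderm sum was mostly Dab2, at 39.0 and 24.1 CPM in KO and 6.74 and 13.7 in WT. Of the other 6 markers of that list, none was above 4.14 CPM in any library. Among the ESC markers Klf4 (653 and 660 CPM in KO, 312 and 217 in WT), Tfcp2l1 (log2 fold change 0.87) and Nanog (0.48) were called higher in KO and Dppa5a (−0.47) lower by edgeR. Of the other markers Dab2 was called higher (1.72; edgeR, adjusted p = 0.00195) and the neural marker Nes lower (−1.04; edgeR, adjusted p = 0.0416). Col1a1 and Tubb3 were tested and not called, and the rest were too low to be tested. The part of these markers in the results below was not tested. Genes of chromosomes 6, 8 and 3 were shifted up in KO as a whole and those of chromosome 11 down, with median log2 fold changes of 0.92, 0.52, 0.48 and −0.49. Nanog lies on chromosome 6 and Sox2 on chromosome 3. Centred on the median of its chromosome, Nanog was called lower in KO (−0.44; edgeR, adjusted p = 0.0361). Sox2, not called before, was then lower too (−0.72; edgeR, adjusted p = 0.000189). Klf4 and Tfcp2l1 were still called higher and Dppa5a lower, and the other ESC markers were not called. Dab2 was still called higher (1.72) and Nes lower (−1.52). The 8 Y-linked genes with any count summed to 98 and 65 counts in WT and to 2 and 4 in KO.

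Of the 33 genes 31 had at least 20 counts over the 4 libraries. The other two were low: Kdm8, a JmjC protein, was counted 2 and 1 times in WT and 2 and 3 times in KO, and the H3K9 demethylase Kdm4d 0 and 2 times in WT and 0 and 0 in KO. The levels given are CPM, a share of counts that is not divided by transcript length, so their order is one of read counts and not of transcript number. By counts the set was led by an eraser of H3K4 methylation and an eraser of H3K27 methylation. Kdm5b, the H3K4 demethylase, stood at 677 and 784 CPM in the 2 WT libraries. Kdm6b, the H3K27 demethylase, stood at 564 and 456 CPM. Neither range met the other or that of the next gene, the H3K4 demethylase Kdm5a, at 197 and 180 CPM.

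Below these came a group of genes with close values. Kmt2e, an MLL relative with no clear methyltransferase activity of its own, stood at 148 and 149 CPM in WT, and Kdm3a, the H3K9 demethylase, at 134 and 146. Kmt2c, which methylates H3K4 at enhancers, stood at 129 and 120 CPM. The SET-domain protein Setd5 stood at 123 and 116 CPM, and Setd2, the enzyme that trimethylates H3K36, at 101 and 125. From Kmt2c to Setd2 the WT ranges overlapped, so these 3 could not be put in order. Kmt5a, which monomethylates H4K20, followed at 71.7 and 99.0 CPM, and the X-linked H3K4 demethylase Kdm5c at 86.8 and 83.0, also with overlapping ranges. The other described genes had means between 3.80 CPM for Setdb2, a relative of SETDB1, and 76.6 ± 1.60 CPM for the MLL gene Kmt2a (SD, n = 2). Summed over all 33 genes the WT level was 2990 ± 78.1 CPM and the KO level 3377 ± 169 CPM (SD, n = 2). In this sum Setd5, Kdm5a and Kdm3a, all on chromosome 6, had means of 332, 341 and 301 CPM in KO against 119, 188 and 140 in WT. The sums of H3K4 methyltransferases (means of 440 against 520) and H3K27 demethylases (466 against 558) were lower in both KO libraries than in both WT libraries. Those of H4K20 methyltransferases overlapped, at 136 and 179 CPM in KO and 153 and 182 in WT. So did those of the other SET or JmjC proteins, at 91.8 and 95.2 in KO and 80.1 and 101 in WT. The sums of the remaining groups were higher in both KO libraries than in both WT libraries. None of these sums was tested.

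**Figure D1:**
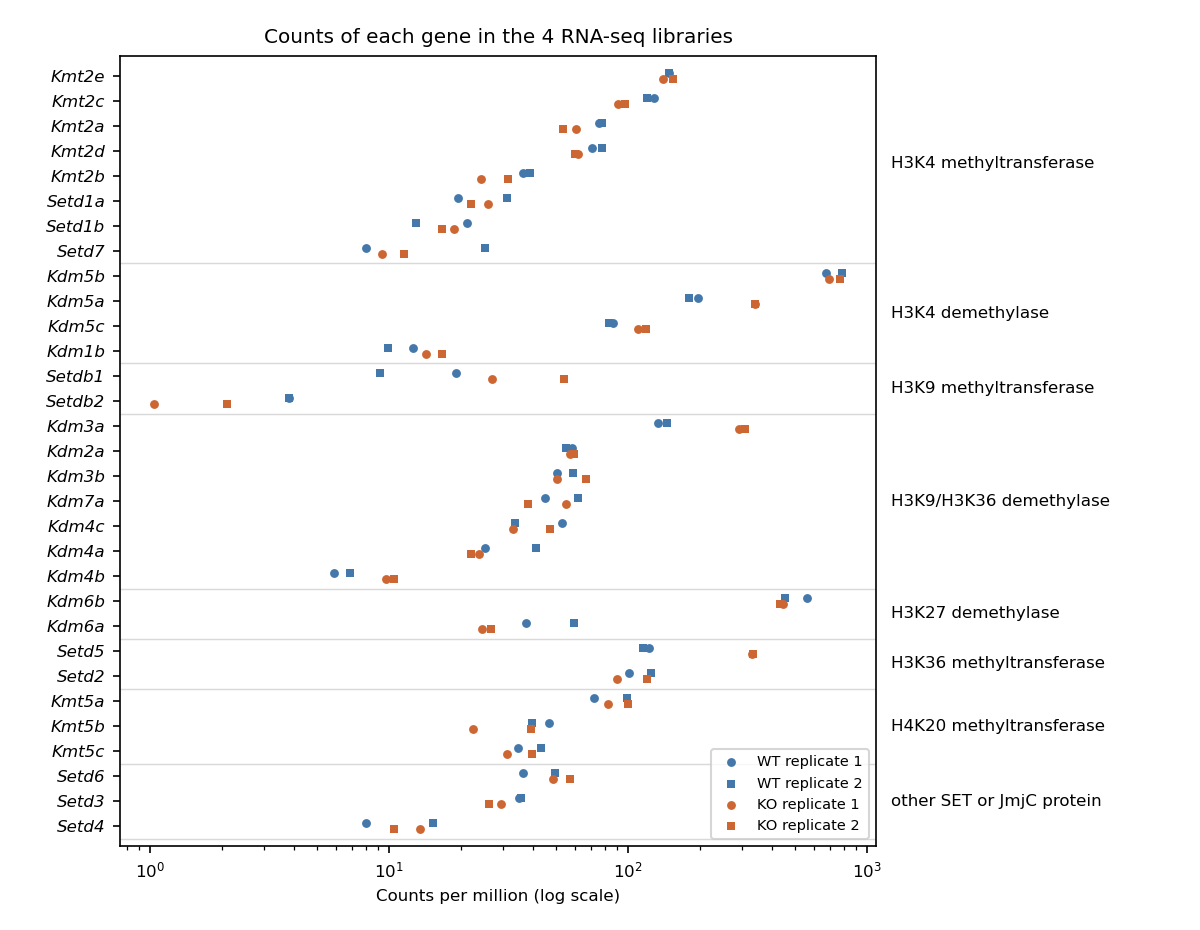
CPM, on a log axis, of the 31 genes with at least 20 counts, grouped by the histone lysine they act on; each point is 1 library (blue WT, orange KO; circles replicate 1, squares replicate 2). Kdm5b lies between 677 and 784 in all 4 libraries, while the KO points of Setd5, Kdm5a and Kdm3a lie to the right of their WT points.

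RCOR2 peaks lay at the ends of most of these genes, about as often as at other expressed genes. A gene was counted where a peak summit lay within 1 kb of either end of its RefSeq interval. This held for 25 of the 33 genes, or 75.8%, against 67.3% of the 10215 placed genes tested for expression and 22.8% of the 14812 placed genes that were not tested. Counting summits within 1 kb of a transcription start listed in the RefSeq promoter table, in which 25 of the 33 genes were found, gave 19 of 25, or 76.0%, against 70.9% of tested genes. With peaks of a −log10 q of at least 5 the count was 14 of 33, or 42.4%, against 40.8% of tested genes. The 33 include genes not tested for expression. Of the 31 with at least 20 counts, 23 (74.2%) had an end peak and 12 (38.7%) one of a −log10 q of at least 5. The peak list was called on merged libraries and holds no replicate values, so no test was made.

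There were 32 such end peaks. Of these 22 were at the 5′ end of the gene and 1, at the H3K4 methyltransferase Kmt2d, at the 3′ end, while 9 belonged to genes whose strand was not taken. The Kmt2d end peak (−log10 q of 4.2) also lay at an end of Prkag1. A stronger Kmt2d peak, with a −log10 q of 9, had its summit 909 bp before the listed start. It was not counted, as it lay 1963 bp from the nearer end of the gene interval. Most end peaks were of ordinary strength, with a median −log10 q of 4.46 and a median fold enrichment of 4.38, against 5.08 and 4.38 for all 53366 peaks. Fold and q are the authors' values. The strongest was the peak at the start of Kmt5b, which di- and trimethylates H4K20, on chromosome 19 from 3767453 to 3768322 (GRCm38), with a fold enrichment of 7.81 and a −log10 q of 15.4. The gene of the H3K9 demethylase Kdm3b had one of 12.5 on chromosome 18, and Setd7, an H3K4 monomethyltransferase, and Kdm6b each had one of 11.6. The peak at Setd7 (chromosome 3, 51559743 to 51561424) was also the widest of the end peaks at 1682 bp. For 10 genes an end peak also lay within 1 kb of an end of another protein-coding gene, as at Kdm5a, whose peak is shared with Ccdc77, and at Setd1b with Rhof, so that peaks there belong to no single gene.

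The distance limit left out the strongest peak beside any of these genes. It covers the 5′ end of Kmt2a on chromosome 9 from 44880995 to 44883188. The peak spans 2194 bp and had a fold enrichment of 13.3 and a −log10 q of 38.8, above 98.7% of the list. Its summit is 1369 bp outside the Kmt2a interval. The peak nearest to the limit on the inside had its summit at 962 bp, in Kmt2c. That nearest on the outside lay at 1060 bp, in Kdm7a, which also has a nearer one. Setd1b held the strongest peak inside a gene, 8070 bp from its nearer end, with a fold enrichment of 9.68 and a −log10 q of 23.9. Kdm6b was the gene with the most peaks, 14 within its interval or 2 kb of it, of which 2 were at an end and the strongest, with a −log10 q of 17.4, lay 2741 bp from an end. Kdm4b, Kdm5c, Kdm6a and Setd6 had none within their interval or 2 kb of it.

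**Figure D2:**
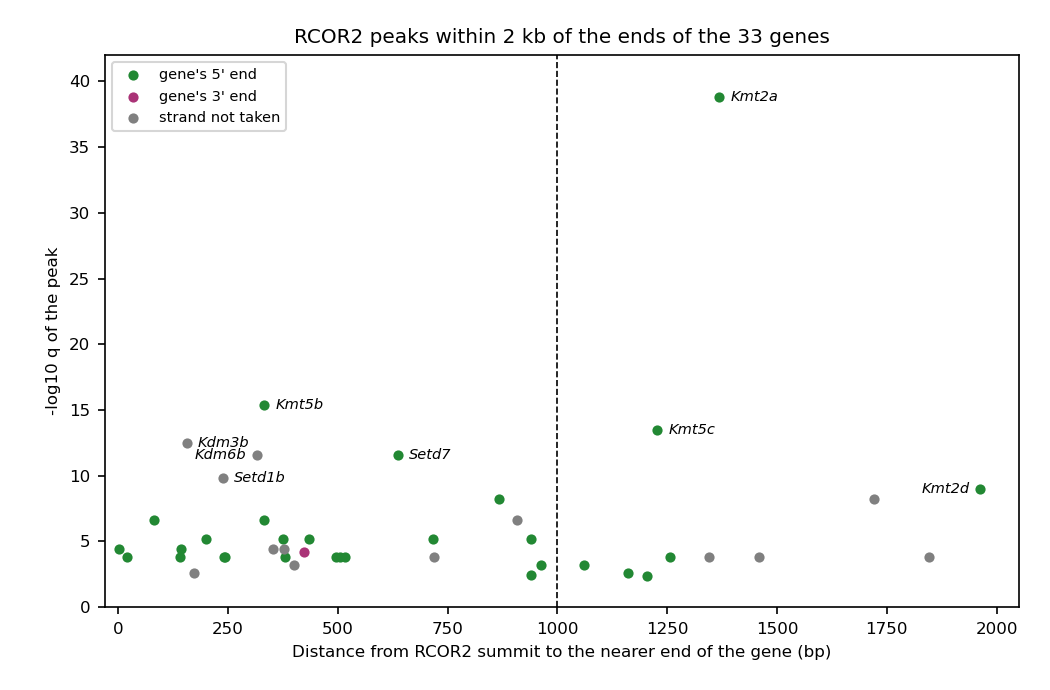
RCOR2 peaks within 2 kb of the ends of the 33 genes: distance of the summit to the nearer gene end in bp (x axis) against the −log10 q of the peak as deposited by the authors (y axis); each point is 1 peak, coloured by gene end, and the dashed line is the 1 kb limit. Most points lie below a −log10 q of 10, and the Kmt2a peak of 38.8 lies outside the limit at 1369 bp.

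Promoter windows are shown for 4 genes on which the comparison below turns, Setdb1, Kdm3a, Kdm6a and Kdm7a, and for Kdm5b, the most counted gene. Each runs from 250 bases before to 50 bases after the most upstream start in the RefSeq promoter table of GRCm38.p6, 5′ to 3′ on the gene's strand. Capitals mark matches, on either strand, to any of 6 motifs spelled out after the sequences, and adjacent matches can run together.
Setdb1 (chr3:95357153-95357452, minus strand): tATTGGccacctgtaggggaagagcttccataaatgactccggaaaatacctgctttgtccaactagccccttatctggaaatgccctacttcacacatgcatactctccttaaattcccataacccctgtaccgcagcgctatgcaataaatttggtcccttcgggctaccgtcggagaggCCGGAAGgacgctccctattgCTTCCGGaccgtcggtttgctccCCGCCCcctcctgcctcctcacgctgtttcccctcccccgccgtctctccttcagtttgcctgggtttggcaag
Kdm3a (chr6:71632868-71633167, minus strand): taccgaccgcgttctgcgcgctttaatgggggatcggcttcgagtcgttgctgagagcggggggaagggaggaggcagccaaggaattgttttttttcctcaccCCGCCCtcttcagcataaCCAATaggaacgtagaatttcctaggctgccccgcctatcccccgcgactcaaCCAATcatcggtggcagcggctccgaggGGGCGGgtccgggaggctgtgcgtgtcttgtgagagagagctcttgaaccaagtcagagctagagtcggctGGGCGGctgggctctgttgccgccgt
Kdm7a (chr6:39206724-39207023, minus strand): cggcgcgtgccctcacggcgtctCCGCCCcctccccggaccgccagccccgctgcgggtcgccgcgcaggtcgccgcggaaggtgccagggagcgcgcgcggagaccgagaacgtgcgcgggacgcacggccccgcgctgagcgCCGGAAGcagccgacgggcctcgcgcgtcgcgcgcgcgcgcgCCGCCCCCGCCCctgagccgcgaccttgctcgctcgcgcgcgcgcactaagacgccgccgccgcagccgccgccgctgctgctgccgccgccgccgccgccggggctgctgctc
Kdm6a (chrX:18162325-18162624, plus strand): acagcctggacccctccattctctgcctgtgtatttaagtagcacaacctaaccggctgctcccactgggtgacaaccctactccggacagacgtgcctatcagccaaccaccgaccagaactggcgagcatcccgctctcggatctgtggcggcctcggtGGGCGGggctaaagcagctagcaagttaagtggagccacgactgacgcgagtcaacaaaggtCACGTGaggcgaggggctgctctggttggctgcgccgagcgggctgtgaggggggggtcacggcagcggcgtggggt
Kdm5b (chr1:134559928-134560227, plus strand): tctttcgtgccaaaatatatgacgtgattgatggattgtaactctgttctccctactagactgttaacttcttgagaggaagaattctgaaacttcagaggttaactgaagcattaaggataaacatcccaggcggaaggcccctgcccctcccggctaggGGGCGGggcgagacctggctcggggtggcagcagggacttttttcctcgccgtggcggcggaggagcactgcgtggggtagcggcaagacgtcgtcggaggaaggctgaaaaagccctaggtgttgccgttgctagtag
The RCOR2 summit lay 1 bp before the start of Setdb1, 199 bp before that of Kdm7a and 81 bp before that of Kdm5b, inside the windows shown. The Kdm3a summit lay 507 bp before its start, and the peak covered 197 of the 300 bases. The Kdm6a window held no peak. The Kdm7a window was the richest of the 5 in CpG, with 65 CpG dinucleotides and 82.7% G and C, and those of Setdb1 (15 CpG, 55.3%) and Kdm5b (17 CpG, 54.7%) were the poorest. Over the 25 genes found in the promoter table the median was 22 CpG and 60.7%, against 7 CpG and 52.7% over all 27025 genes of that table, many of which are not expressed here. A GC box, GGGCGG, was in 16 of 25 windows (64.0%, against 35.9% of all genes). The CCAAT box was in 11 (44.0% against 38.0%). An ETS site, CCGGAAG, was in 5 of 25, against 9.14% of all genes, among them Setdb1 and Kdm7a. An E-box, CACGTG, was in 1, that of Kdm6a (4.0% against 7.24%). The core site of the factor YY1, AAGATGGCG, was in 1, that of Kdm5c (4.0% against 1.48%), and TATAAA, a form of the TATA box, in 0 of 25 (against 14.2%). Kdm2a, Kdm3b, Kdm4b, Kdm5a, Kdm6b, Kmt2b, Kmt2e and Setd1b were not in that table. A match describes the letters and not a bound site.

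The libraries labelled KO were next compared with WT. In KO 4 genes of the set rose and 1 fell of the 30 tested. The genes that rose were Setd5, Kdm3a, Kdm5a and Setdb1, and the gene that fell was Kdm6a (edgeR's quasi-likelihood test with Benjamini-Hochberg adjustment over all genes). Over all 10241 genes tested 10.4% were higher and 9.30% lower, or 19.7% in either direction, so that 5 of 30 is close to the background. Its median log2 fold change was −0.02, as was that of all tested genes, and its median absolute change 0.33 against 0.42. Of the genes that rose, 3 lie on chromosome 6 and 1 on chromosome 3. Outside chromosomes 3, 6, 8 and 11, 6.02% of 7824 tested genes were higher and 8.09% lower by edgeR. Of the 22 genes of the set there, 0 rose and 1 fell by edgeR. An unadjusted p under 0.05 was found for 3 of the 22, beside 1943 of the 7824. DESeq2 called 0 of the 22, beside 212 of the 7824 higher and 259 lower. By limma-voom 1 of the 22 was lower, beside 494 of the 7824 higher and 694 lower. In bulk RNA a change in the number of cells that express a gene and a change in RNA per cell cannot be told apart.

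Setd5, which carries a SET domain and is linked to H3K36 methylation and to a corepressor complex, had the increase with the smallest adjusted p. It was counted 958 and 636 times in KO and 291 and 152 times in WT, or 331 and 333 CPM against 123 and 116. The KO libraries lay far above both WT libraries and within a few CPM of each other. The gene, on chromosome 6 from 113077262 to 113153432, rose 2.77-fold (log2 fold change 1.47, SE 0.17; edgeR, adjusted p = 6.04e-10). It was called in all 12 alternatives tried, including centring on the chromosome 6 median (0.55, SE 0.17; edgeR, adjusted p = 0.0178), with adjusted p from 1.45e-13 to 0.0178. Centred in this way 6.28% of all tested genes were called higher and 6.69% lower. Among the tested genes of chromosome 6, 80.1% had a lower log2 fold change, and of its 20 nearest tested neighbours 8 were called higher, with a median of 0.81. An RCOR2 peak lay 332 bp inside its 5′ end (chromosome 6, 113077475 to 113077702, −log10 q of 6.64), while the start listed for it in the promoter table lies 27341 bp away, so no promoter is shown.

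Kdm3a, an H3K9 mono- and dimethyl demethylase on chromosome 6 from 71588970 to 71632990, stood at 292 and 309 CPM in KO and at 134 and 146 in WT. Both KO libraries lay above both WT libraries, and the gene rose 2.15-fold (log2 fold change 1.11, SE 0.17; edgeR, adjusted p = 7.53e-07). Kdm5a, an H3K4 trimethyl demethylase on chromosome 6 from 120364099 to 120444574, stood at 341 and 341 CPM in KO and at 197 and 180 in WT. It rose 1.81-fold (log2 fold change 0.85, SE 0.16; edgeR, adjusted p = 4.61e-05). Both rises were close to those of their surroundings: centred on the median of chromosome 6, Kdm3a was at 0.19 (edgeR, adjusted p = 0.528) and Kdm5a at −0.07 (edgeR, adjusted p = 0.858). Of the 10 tested genes on either side of Kdm5a, 13 of 20 were called higher, with a median log2 fold change of 1.18, and for Kdm3a 9 of 20, with a median of 0.91. On chromosome 6 as a whole 56.2% of 502 tested genes were called higher and 2.39% lower.

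Kdm7a, a JmjC demethylase of H3K9 and H3K27, was the member on chromosome 6 that did not rise with it. Its KO libraries held 54.9 and 38.2 CPM and its WT libraries 45.1 and 61.7, overlapping ranges, and the log2 fold change was −0.17 (SE 0.27; edgeR, adjusted p = 0.741). It ranked above only 7.57% of the tested genes of the chromosome, and 11 of its 20 neighbours were called higher and 1 lower. Centred on the chromosome median it was called lower (−1.08, SE 0.27; edgeR, adjusted p = 0.00379), the 1 alternative of 12 in which it was called.

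**Figure D3:**
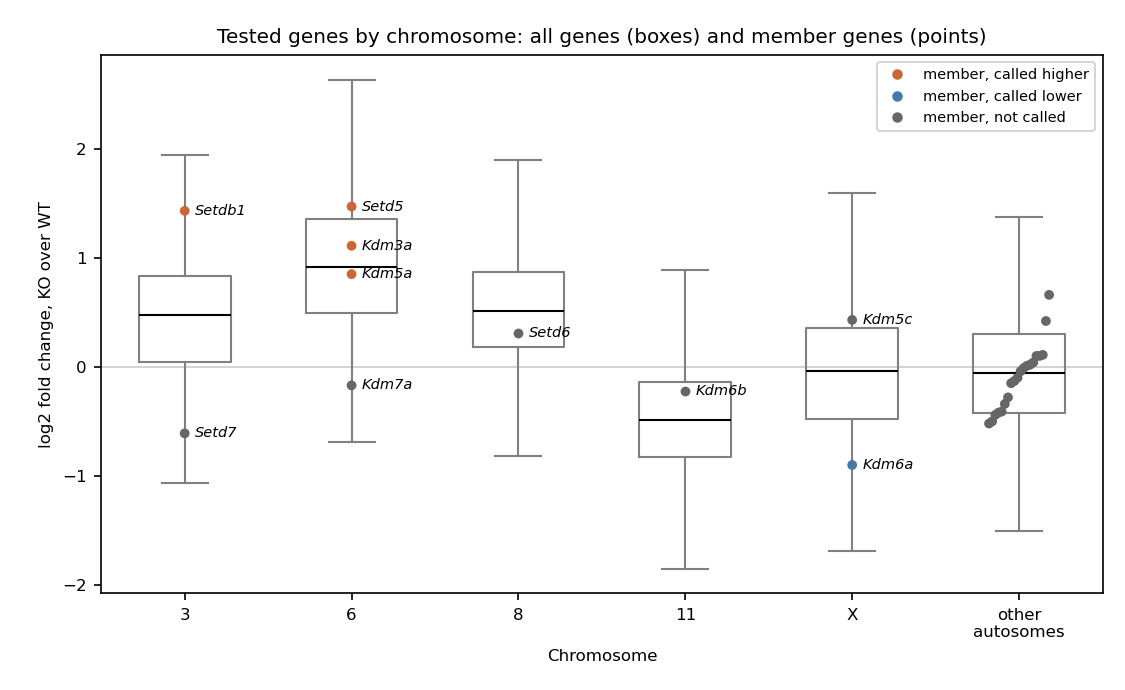
log2 fold change of KO over WT for chromosomes 3, 6, 8, 11 and X and for the other autosomes together: boxes give the median and quartiles of all tested genes, with whiskers over the range without outlying genes, and points are the 30 tested genes of the set (orange called higher, blue called lower, grey not called). Setd5 lies above the box of chromosome 6, Kdm3a and Kdm5a lie within it around the median of 0.92, and Kdm7a lies below it.

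Setdb1, which trimethylates H3K9 and silences endogenous retroviruses, was the other gene that rose, on chromosome 3 from 95323525 to 95357202. It was counted 78 and 103 times in KO and 45 and 12 times in WT, or 26.9 and 53.9 CPM against 19.0 and 9.14. The groups did not overlap, but the libraries of each group differed from one another by more than the nearest KO and WT libraries did. The log2 fold change was 1.43 (SE 0.38; edgeR, adjusted p = 0.00404), a 2.69-fold rise. The call was lost without KO replicate 2 (0.89; edgeR, adjusted p = 0.269), by DESeq2 (1.49; adjusted p = 0.0641) and centred on the median of chromosome 3 (0.95; edgeR, adjusted p = 0.0863); without WT replicate 1 the value was 2.13, over the 12 alternatives adjusted p ran from 0.000352 to 0.269, and on that chromosome 26.2% of 480 tested genes were called higher. Its relative Setdb2, at 1.04 and 2.09 CPM in KO and 3.79 and 3.81 in WT, had 21 counts in all and was not tested.

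Kdm6a, the X-linked H3K27 demethylase also known as UTX, was the 1 gene that fell. It stood at 24.5 and 26.7 CPM in KO (71 and 51 counts) and at 37.5 and 59.4 CPM in WT (89 and 78 counts). Both KO libraries lay below both WT libraries, which differed from each other more than the nearest KO and WT libraries did. The log2 fold change was −0.90 (SE 0.31; edgeR, adjusted p = 0.0330), or 0.536-fold. The call was lost without KO replicate 1 (−0.84), KO replicate 2 (−0.94) or WT replicate 2 (−0.56), by DESeq2 (−0.90; adjusted p = 0.197) and with the X chromosome centred (−0.86; edgeR, adjusted p = 0.0553), with adjusted p from 0.00958 to 0.349 over the 12 alternatives. Its Y-linked relative Uty was counted 3 and 8 times in WT and 0 times in both KO libraries, and was too low to be tested. Kdm6b, the other H3K27 demethylase, stood at 446 and 434 CPM in KO and 564 and 456 in WT, and did not pass the test (−0.22, SE 0.15; edgeR, adjusted p = 0.345). It lies on chromosome 11, where the median was −0.49, and centred on that median its value turned to 0.27 (edgeR, adjusted p = 0.259).

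Kdm5a and Kdm3a took a larger share of the counts of their families in KO, while for Kdm6a the intervals of KO and WT libraries overlapped. Kdm5a made up 29.8% (Wilson 95% interval 28.3% to 31.4%) and 27.6% (25.8% to 29.4%) of the counts of Kdm5a, Kdm5b and Kdm5c in the KO libraries. In the WT libraries it made up 20.5% (18.9% to 22.2%) and 17.2% (15.3% to 19.3%). Both KO shares lay above both WT shares by more than counting error. Kdm3a made up 85.3% (82.9% to 87.4%) and 82.3% (79.4% to 84.9%) of the counts of Kdm3a and Kdm3b in KO and 72.6% (68.2% to 76.6%) and 71.3% (65.6% to 76.4%) in WT, again without overlap of the intervals. The share of Kdm6a in the counts of Kdm6a and Kdm6b was 5.21% (4.15% to 6.52%) and 5.79% (4.43% to 7.53%) in KO, close to the 6.24% (5.10% to 7.61%) of WT replicate 1, while WT replicate 2 stood apart at 11.5% (9.34% to 14.2%). The intervals cover counting error only, and these shares were not tested. They were taken from the same counts as the calls and are no separate evidence for them. Kdm5a and Kdm3a lie on chromosome 6, where the median log2 fold change was 0.92, and Kdm5b, Kdm5c and Kdm3b on chromosomes 1, X and 18. Whether the shares changed apart from the shift of chromosome 6 was not tested.

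None of the 8 H3K4 methyltransferases was called in either direction by edgeR, DESeq2 or limma-voom, and 1, Kmt2c, had an unadjusted p under 0.05. Of all 10241 tested genes 3163 had such a p. Called higher and lower were 1062 and 952 by edgeR, 590 and 414 by DESeq2 and 1098 and 1024 by limma-voom. Their median log2 fold change was −0.34. The MLL genes Kmt2a, Kmt2b, Kmt2c and Kmt2d, which form the catalytic cores of separate COMPASS-like complexes, each had both KO libraries below both WT libraries. Kmt2c stood at 91.1 and 97.3 CPM in KO and 129 and 120 in WT (−0.41, 95% interval −0.80 to −0.01; edgeR, adjusted p = 0.144). Kmt2a stood at 60.4 and 53.4 CPM against 75.5 and 77.7 (−0.42, interval −0.89 to 0.05), Kmt2b at 24.2 and 31.4 against 36.3 and 38.9 (−0.44, interval −1.08 to 0.20), and Kmt2d at 61.8 and 60.2 against 70.8 and 77.7 (−0.28, interval −0.74 to 0.19). Such a lack of overlap is common in these data: it was found for 16 of the 30 tested genes of the set and for 56.9% of all tested genes. Kmt2e (−0.01), Setd1a (−0.04) and Setd1b (0.02), the last 2 the cores of the SET1 complexes, had overlapping ranges, as had Setd7 (−0.61, interval −1.67 to 0.45), whose WT libraries stood apart at 8.01 and 25.1 CPM.

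Among the H3K4 demethylases, Kdm5b, the most counted gene of the set, stood at 692 and 775 CPM in KO and 677 and 784 in WT, a log2 fold change of 0.01 whose 95% interval ran from −0.28 to 0.30. This is the narrowest interval of the set. Kdm5c was at 110 and 119 CPM in KO against 86.8 and 83.0 in WT, with the groups apart, and missed the threshold (0.43, interval 0.02 to 0.84; edgeR, adjusted p = 0.135). Kdm1b, the LSD1 relative that acts in oocytes, was low in both, at 14.2 and 16.7 CPM against 12.6 and 9.90. Among the H3K9 and H3K36 demethylases other than Kdm3a and Kdm7a, Kdm2a (0.04), Kdm3b (0.10) and Kdm4c (−0.15) had overlapping ranges. Kdm4a, at 23.8 and 22 CPM against 25.3 and 41.1 (−0.50), and Kdm4b, at 9.66 and 10.5 against 5.90 and 6.86 (0.66), did not overlap and were not called.

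The 3 H4K20 methyltransferases and the 3 other tested SET proteins held 0 calls by edgeR, DESeq2 or limma-voom and 0 unadjusted p under 0.05. Over all 10241 tested genes edgeR called 19.7%, and 3163 had an unadjusted p under 0.05. Kmt5b stood at 22.4 and 39.2 CPM in KO and 46.8 and 39.6 in WT (−0.52, interval −1.14 to 0.10), with the second KO library close to the second WT library. Kmt5a (0.11) and Kmt5c (−0.13) had overlapping ranges, as had Setd2 (−0.10, interval −0.51 to 0.30), Setd4 (0.10) and Setd6 (0.31). Setd3, which methylates a histidine of actin, stood at 29.3 and 26.2 CPM against 35.0 and 35.8 (−0.34). Over the 25 tested genes that were not called, log2 fold changes ran from −0.61 to 0.66. For 18 of them the whole 95% interval lay between −1 and 1, so that a change larger than that was outside the interval, and for the other 7 it was not.

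**Figure D4:**
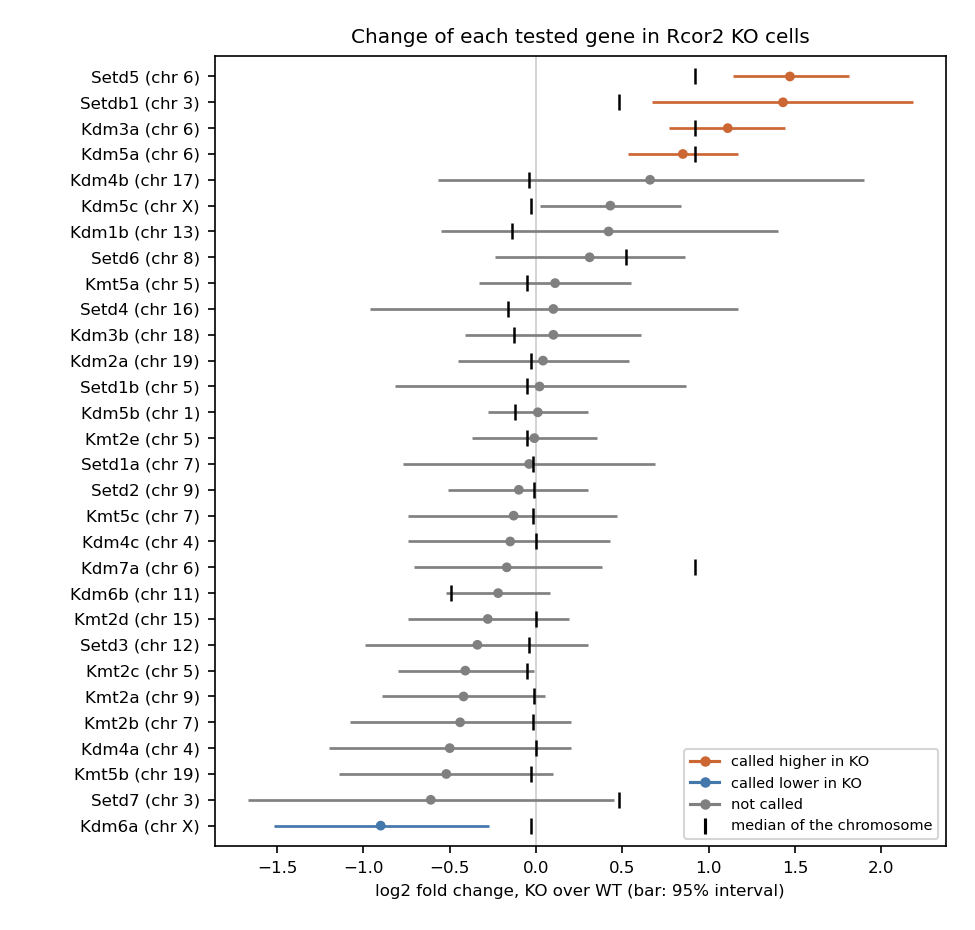
log2 fold change of KO over WT for the 30 tested genes, in order, with 95% intervals (bars) and the median of each gene's chromosome (black ticks); orange genes were called higher, blue lower and grey not called by edgeR. Setdb1 has a far wider interval than Setd5, Kdm3a and Kdm5a, and the ticks of Kdm3a and Kdm5a fall inside their bars.

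The calls were set beside the RCOR2 peaks, with no test of the difference. Of the 22 tested genes with a peak at a gene end 4 were higher and 0 lower, or 18.2%, against 19.8% of all tested genes with such a peak. Of the 8 without one 0 were higher and 1, Kdm6a, lower, or 12.5%, against 19.4% of all tested genes without one. All 4 genes that rose had an end peak and the gene that fell had none. Such a peak was found at 22 of the 30 tested genes of the set and at 67.3% of all tested genes. The split depends on the definition: Setd5 had no summit within 1 kb of its listed start. Kdm4c and Kmt5a, counted as without an end peak, had one there. The −log10 q of these peaks was 6.64 at Setd5, 5.16 at Kdm3a and 4.46 at Setdb1 and Kdm5a. Genes that were not called had both stronger end peaks, up to 15.4 at Kmt5b, and weaker ones, down to 2.44 at Kdm4a. Kmt2a and Kmt5c, not called and counted as without an end peak, had peaks of 38.8 and 13.5 outside the limit. Their summits lay 1369 and 1228 bp from the nearer gene end.

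Other genes of histone lysine methylation were read from a list of methyltransferases, demethylases and complex partners outside the set. Of 46 that were tested 4 rose and 1 fell by edgeR, against the 10.4% higher and 9.30% lower of all tested genes. By limma-voom 6 were higher and 1 lower, beside 1098 and 1024 of all 10241 tested genes. By DESeq2 2 were higher and 1 lower, beside 590 and 414 of the 10241. Nsd2, an H3K36 dimethyltransferase, stood at 79.0 and 84.8 CPM in KO and 48.1 and 48.8 in WT (log2 fold change 0.76, SE 0.24; edgeR, adjusted p = 0.0175), and Men1, the menin subunit of the KMT2A and KMT2B complexes, at 45.6 and 52.8 against 19.8 and 32.8 (0.94, SE 0.31; adjusted p = 0.0248 by edgeR). Smyd5 (1.43, SE 0.23) and the HP1 protein Cbx3 (0.77, SE 0.17) rose too, but both lie on chromosome 6 and were not called after centring (0.51 and −0.14). Morc3, an ATPase with a part in silencing retroelements, fell from 309 and 368 to 154 and 173 CPM (−1.05, SE 0.16; edgeR, adjusted p = 1.50e-06; −0.89 centred). After centring 2 of the 46 were higher, Nsd2 and Men1, and 3 lower, against 6.28% and 6.69% of all tested genes. Added to Morc3 were Atf7ip on chromosome 6 (−1.59; edgeR, adjusted p = 0.000429) and Ash2l on chromosome 8 (−0.53; edgeR, adjusted p = 0.0103). By group, edgeR called 2 of 16 other methyltransferases higher (limma-voom 4, DESeq2 1) and 1 of 15 COMPASS subunits (limma-voom 1, DESeq2 0). It also called 1 of 9 H3K9 partners higher (limma-voom 1, DESeq2 1). The share of all tested genes called higher by edgeR was 10.4%, and those of limma-voom and DESeq2 are the counts given above. Of 6 other demethylases 0 were called by edgeR, DESeq2 or limma-voom. An unadjusted p under 0.05 was found for 14 of the 46, beside 3163 of all 10241 tested genes. By group these were 7 of 9 H3K9 partners, 5 of 16 other methyltransferases, 1 of 15 COMPASS subunits and 1 of 6 other demethylases.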

How the data were processed

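RNA was measured in 4 libraries and RCOR2 binding in 1 list of merged peaks. Reads per gene symbol were deposited by the authors as whole, unscaled counts. Per the submitters' processing notes the tools for RNA included STAR 2.5.2b, featureCounts of Subread, Trimmomatic 0.36 and SAMtools 1.8, and those for ChIP included Bowtie2 2.3.4.1 and MACS2 2.1.1.20160309, on GRCm38, with no role given for each. The sources used here do not say how strand, molecular identifiers and reads shared by similar or overlapping genes were handled. Values of the similar Kdm4 and Kdm5 genes are uncertain to that extent. The fold enrichment (a ratio of ChIP to control) and the −log10 q of each peak are the authors' deposited values, and were used only to describe and filter peaks.

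KO and WT counts were compared in R 4.3.3 by edgeR 4.0.16 (filterByExpr, TMM, quasi-likelihood test without a replicate block, two-sided, adjusted p under 0.05 over 10241 genes); DESeq2 1.42.0 and limma 3.58.1 were alternatives. The edgeR code was tested on simulated data. CPM are counts per 1000000 of the TMM-scaled counts of tested genes. Each standard error was derived from the F statistic of its gene. The planned division by coding length was not made, as coding lengths were not used here. Of 25131 rows, 25028 were placed by the RefSeq table of GRCm38.p6, 24696 by symbol and 332 by a synonym; 26 rows carry a date in place of a symbol. Chromosome centring added the median log2 fold change of a gene's chromosome as an offset to KO. The genes, their groups, the list of other genes, the motifs and the genes whose promoters are shown were chosen with earlier results of these data known. Every gene with at least 20 counts was described; full statistics were given for called genes, and library values for these and the 10 most counted in WT, and Kdm7a and others were added after their values were seen. The counts in the matrix were identical to those of the single-library files.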

Additional observations from a re-analysis of the deposited data

How the results depend on the processing

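The counts of 4 genes higher and 1 lower were the same under limma-voom, library size alone, DESeq2 size factors within edgeR and both other filters on low counts. Centred on chromosome medians, 1 gene was higher (Setd5) and 1 lower (Kdm7a in place of Kdm6a), and Kdm5a turned to −0.07. By DESeq2 3 were higher and 0 lower, with 1 lower at an unadjusted p under 0.05. Leaving out 1 library at a time gave 3 to 4 higher and 0 to 1 lower by edgeR, with 1 to 3 lower at an unadjusted p under 0.05. With replicate number as a block 4 were higher and 1 lower; the labels do not say what the numbers share, and libraries of equal number did not deviate together (correlation −0.05 over 10241 genes). Over all genes, the 1062 higher and 952 lower became 593 and 418 by DESeq2, 569 and 466 without KO replicate 1, 621 and 440 without KO replicate 2, and 643 and 685 with centring. Genes with an end peak numbered 14 in place of 25 of the 33 with a −log10 q of at least 5. They were 21 to 27 of the 33 under the other distances and with any overlap. By listed start there were 19, out of the 25 genes that have one. The summed WT level was 2935 to 3045 CPM with 1 library left out. With 101 counts or fewer in all, as for Setd7, Setd4 and Kdm4b, intervals reached beyond a 2-fold change. The same held for Kdm1b, Kdm4a, Kmt2b and Kmt5b, with 116, 225, 267 and 303 counts. The causes of these differences were not tested.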
